A study of Mus musculus with 8 samples.

Results

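Matricellular proteins are secreted into the extracellular matrix, where they bind receptors, proteases and growth factors more than they build structure. The genes described here are Spon2, other genes of this class and fibronectin (Fn1), a fibril-forming structural glycoprotein that many of them bind: the spondins Spon1 and Spon2, the thrombospondins Thbs1, Thbs2 and Thbs3, the calcium-binding glycoproteins Sparc and Smoc2, tenascin C (Tnc), periostin (Postn) and Fn1. They were taken as every non-control probe whose gene name in the scanner files was 1 of these 10, which gave 21 of the 41174 gene probes of the array, and 10 of its 18827 genes with a symbol found in RefSeq. The genes were selected on their ratios of Lats2-/- over Lats2+/+ on these same arrays, so those values are given as a description with no test. Analysis was limited to probes that stood well above background in 2 or more of the 3 extracts of a genotype, and 19 of the 21 probes, from 9 of the 10 genes, met this.

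RNA came from untreated mouse embryonic fibroblasts (MEFs, cells grown out of embryos and kept in culture) of strain C57BL/6J, either Lats2-/- or Lats2+/+. Lats2 is a kinase of the Hippo pathway that phosphorylates the coactivators YAP and TAZ and so keeps them from the TEAD factors in the nucleus. The numbers 112, 116 and 121 in the labels mark 3 litters, each with 1 Lats2-/- extract and 1 Lats2+/+ extract of a named clone, so that there were 6 extracts and each genotype of a litter rests on 1 culture. Both extracts of a litter were hybridised together in Cy3 and Cy5, on 2 arrays with swapped dyes for litters 112 and 116 and on 4 arrays for litter 121, which alone was on the second slide, so that slide and litter 121 cannot be told apart. Neither the stage of the embryos nor the deleted part of Lats2 is given in the sources used here.

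The thrombospondins are trimers or pentamers that bind CD47, integrins and calcium, and Thbs1 also activates latent TGF-beta. Spon2 (mindin, F-spondin family) binds integrins and bacterial surfaces and carries a thrombospondin repeat. In fibroblasts many of these genes are induced during wound repair, by TGF-beta and by mechanical load.

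RefSeq's promoter table (GRCm38.p6) held entries for 5 of the 10 genes, 7 promoters in all, for Thbs2, Thbs3, Sparc, Tnc and Postn. The following 3 are shown because their genes gave some of the largest ratios or changed direction between litters, and each is the 250 bases before a start, 5′ to 3′. Capitals mark the letters TATAA where they occur within 40 bases before the start on the gene's own strand. This search was chosen after the sequences had been read.
Tnc, chr4:64046937-64047186, minus strand: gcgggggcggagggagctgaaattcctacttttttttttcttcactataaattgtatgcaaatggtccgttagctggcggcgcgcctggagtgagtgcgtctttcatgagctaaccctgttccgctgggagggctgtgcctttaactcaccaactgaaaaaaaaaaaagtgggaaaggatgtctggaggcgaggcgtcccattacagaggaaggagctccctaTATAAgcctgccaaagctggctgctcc
Postn, chr3:54360857-54361106, plus strand: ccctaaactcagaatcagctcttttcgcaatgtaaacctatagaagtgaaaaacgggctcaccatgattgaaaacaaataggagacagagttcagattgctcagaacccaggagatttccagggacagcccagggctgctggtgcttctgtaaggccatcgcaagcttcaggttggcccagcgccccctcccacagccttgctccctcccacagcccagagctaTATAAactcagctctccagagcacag
Thbs2, chr17:14694263-14694512, minus strand: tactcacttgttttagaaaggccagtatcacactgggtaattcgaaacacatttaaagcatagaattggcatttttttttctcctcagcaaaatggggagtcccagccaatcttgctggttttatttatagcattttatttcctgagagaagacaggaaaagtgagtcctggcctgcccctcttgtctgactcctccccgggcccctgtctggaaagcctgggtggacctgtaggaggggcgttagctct
TATAA began 27 bases before the start in this Tnc promoter and 26 bases before it in this Postn promoter. It was in this window in 2 of the 7 promoters, not at the other Tnc and Postn starts in the table, and in 4.23% of all 32851 promoters. The letters GGAATG, the core of the TEAD site, were sought on both strands of the 250 bases, which the TATAA window overlaps. They were in 0 of the 7 promoters of these genes and in 12.6% of all promoters. A match is a match of letters only, and its absence says nothing beyond this window.

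The extracts as a whole set the frame for the values below. Lats2 itself was measured by 4 probes, of which 1 was lower in the Lats2-/- extract of all litters, with log2 signals of 6.64, 6.64 and 7.33 against 7.97, 7.69 and 7.89 in litters 112, 116 and 121, which are ratios of -1.33, -1.05 and -0.56. The other 3 were not lower in litter 121, where they read 0.80, 1.12 and 1.17, and since the deleted part is not known they check nothing, so the extracts are called here by their labels. Of the fibroblast markers 5 of 6 were well above background in all 6 extracts. So were 3 of 4 cartilage, 2 of 4 smooth muscle, 2 of 4 neural and 0 of 4 skeletal muscle markers, so the lists do not single out fibroblasts. The exception among the fibroblast markers, Pdgfra, was not well above background in the extract of litter 121 labelled Lats2-/-. Over the 12087 genes with a RefSeq symbol and a kept probe, 1 probe each, the litter ratios correlated at 0.14 (litters 112 and 116), 0.06 (112 and 121) and 0.00 (116 and 121). Genes are not independent replicates. In limma's moderated test 0% of the 22642 kept probes passed an adjusted p of 0.05, the smallest being 0.634, while 1549 probes had an unadjusted p under 0.05.

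Spon2 was higher in the Lats2-/- extract of every litter and on all 8 arrays. It lies on chromosome 5, and its brighter probe (A_52_P381484, chr5:33530825-33530884 in mm8, minus strand) gave log2 signals of 6.53, 7.56 and 6.96 in the Lats2+/+ extracts of litters 112, 116 and 121. The Lats2-/- extracts of the same litters gave 7.79, 11.57 and 11.58, and sets of 3 values below keep this order of litters. The lowest Lats2-/- signal, that of litter 112, was above the highest Lats2+/+ signal, so that the genotypes did not overlap, but it was near it and far from the other two.

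The ratios were 1.26, 4.01 and 4.62 on the log2 scale, or 2.40-, 16.1- and 24.6-fold. Their mean was 3.30 ± 1.79 (SD, n = 3 litters). Single arrays ran from 1.22 to 4.80, and the 2 dye orientations of a litter lay close together. The second probe (A_51_P434017, chr5:33531311-33531370, 486 bases from the first) gave 0.68, 2.83 and 3.24, lower than the first in each litter and in the same order. Both probes were well above background on all 8 arrays in both channels. The Lats2+/+ signals of the brighter probe were nonetheless not far above the dimmest signals called well above background, which were 5.87 to 6.16 over the arrays, and the size of the ratio moved with the background correction. The litters read 1.72, 4.30 and 5.13 with an offset of 16 in place of 50, and 2.44, 4.48 and 5.78 with Feature Extraction's processed signals, whose background correction and dye normalization both differ. Without litter 112 the mean was 4.32, and within slide 1 (litters 112 and 116) it was 2.64.

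**Figure D1:**
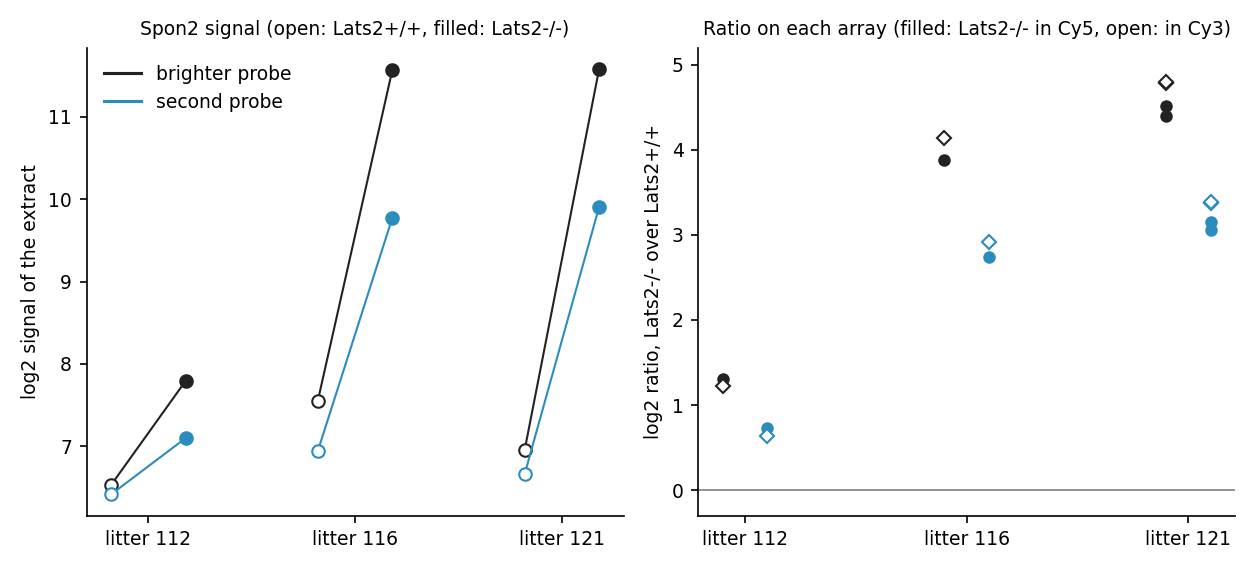
Spon2 in the 3 litters. The left panel plots the log2 signal of the Lats2+/+ (open) and Lats2-/- (filled) extract of each litter for both probes, and the right panel the log2 ratio of Lats2-/- over Lats2+/+ on each array, filled where Lats2-/- was in Cy5 and open where it was in Cy3; all 8 arrays of both probes sit above 0, and litter 112 sits lowest.

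Spon1, the other spondin, was not measured above background: neither of its probes (chr7:113833381-113833440 and chr7:113831751-113831810 in mm8, plus strand) was well above background on any array in either channel, and no ratio is given for it.

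Among the 12087 genes with a kept probe and a RefSeq symbol, 0.314% were at least 2-fold higher in Lats2-/- in each litter, and 1 of the 9 measured members, Spon2, was among them. All Lats2-/- extracts lay above all Lats2+/+ extracts for 3.47% of genes, and again for 1 of the 9 members, Spon2. Ratios above 0 in all litters were found for 16.7% of genes and for 4 of the 9 members, Spon2, Thbs1, Postn and Fn1. The ratios had already entered the choice of the members, so nothing is read from these counts.

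Thbs1 had the second largest mean ratio. Its brightest probe (A_52_P363951, chr2:117817480-117817539 in mm8, plus strand) gave log2 signals of 10.67, 7.16 and 13.45 in the Lats2+/+ extracts and of 11.26, 10.62 and 14.59 in the Lats2-/- extracts. The genotypes overlapped widely, since litter 121 was highest in both and the Lats2+/+ extract of litter 116 stood far below all others. The Lats2+/+ extracts alone spanned 6.28 log2 units, or 77.8-fold, a range reached by 0.0745% of genes.

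Within litters Thbs1 was nevertheless higher in Lats2-/- each time, with ratios of 0.59, 3.46 and 1.14 (mean 1.73 ± 1.52, SD, n = 3 litters) and 8 of 8 arrays above 0. The other 2 Thbs1 probes, which lie farther 5′, gave the same signs, with 0.40, 3.31 and 0.90 and with 0.32, 2.44 and 0.77. Without litter 116 the mean was 0.87, as the largest ratio came from the litter with the low Lats2+/+ extract.

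Thbs2, which forms trimers and binds matrix metalloproteinase 2, changed direction between litters. Its probe (A_51_P461877, chr17:14404116-14405379 in mm8, minus strand, across an intron) gave log2 signals of 7.09, 10.23 and 10.64 in the Lats2+/+ extracts, and of 9.33, 12.17 and 7.87 in the Lats2-/- extracts. Litters 112 and 116 were higher in Lats2-/-, with ratios of 2.24 and 1.94, whereas in litter 121 the extract labelled Lats2-/- was lower, with a ratio of -2.77, a 6.81-fold difference. All 4 arrays of litter 121 and all 4 of the other litters kept their side of 0. The mean of 0.47 ± 2.81 (SD, n = 3 litters) therefore stood for no litter, and it was 2.09 without litter 121 and -0.42 without litter 112.

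Thbs3, a pentameric thrombospondin of cartilage and other connective tissue, differed less. Its signals (chr3:89312527-89312586 in mm8) were 9.86, 10.26 and 11.67 in the Lats2+/+ extracts, and 10.98, 11.66 and 11.42 in the Lats2-/- extracts. The ratios of 1.12, 1.40 and -0.26 (mean 0.76 ± 0.89, SD, n = 3 litters) repeated the signs of Thbs2 on a smaller scale. The mean was 0.43 without litter 116 and 1.26 without litter 121.

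**Figure D2:**
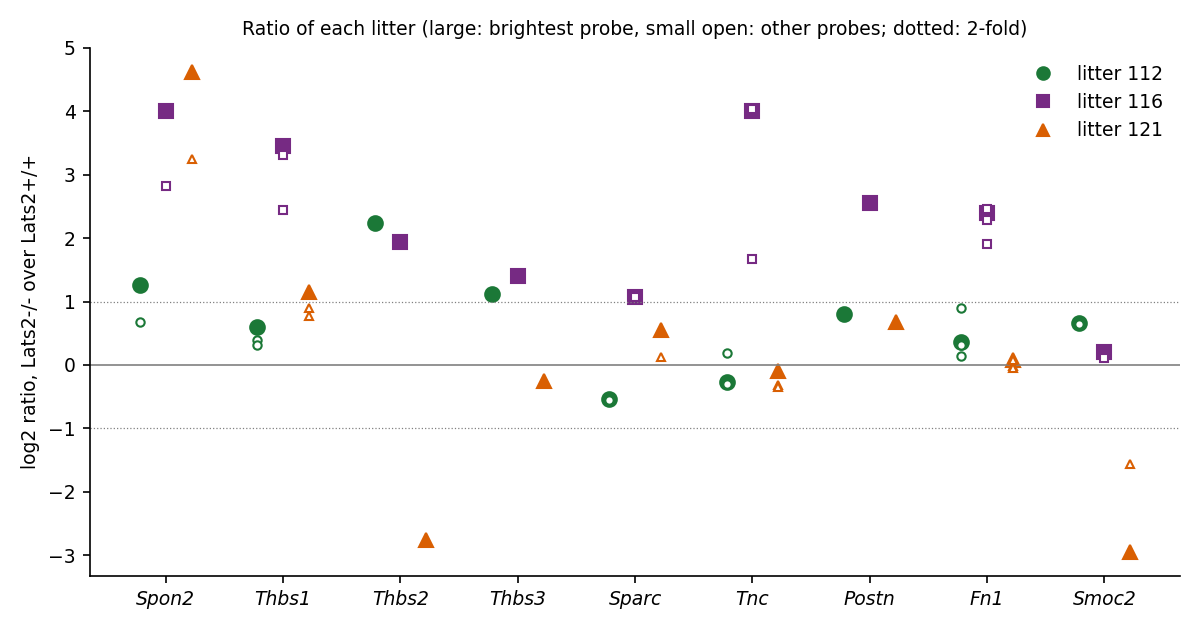
Log2 ratio of Lats2-/- over Lats2+/+ in each litter for the 19 kept probes of the 9 measured genes. Large symbols are the brightest probe of a gene and small open symbols its other probes, and dotted lines mark 2-fold; litter 116 lies above the upper line for every gene but Smoc2, while litter 121 lies below the lower line for Thbs2 and Smoc2.

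Tnc, an adhesion-modulating hexamer of healing and developing tissue, differed in 1 litter. Its brightest probe (A_51_P291438, chr4:63446146-63446191 in mm8, minus strand) gave log2 signals of 8.13, 7.50 and 12.21 in the Lats2+/+ extracts and of 7.86, 11.51 and 12.11 in the Lats2-/- extracts. The genotypes lay close together in litters 112 and 121, with ratios of -0.28 and -0.10, but were apart in litter 116, where the ratio was 4.01 or 16.1-fold, the same size as that of Spon2. The mean was 1.21 ± 2.42 (SD, n = 3 litters) and -0.19 without litter 116.

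A second Tnc probe, farther 5′ (chr4:63499575-63500338) gave -0.30, 4.03 and -0.31. The third (chr4:63471205-63471264) was dim: the Lats2+/+ extract of litter 116 was not well above background on either array, so that Lats2-/- was at least 3.18-fold higher there, and the Lats2+/+ extract of litter 112 was well above background on 1 of 2 arrays. For such a bound the dim extract was taken on each array at its own signal or at the dimmest signal called well above background there, whichever was higher.

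Postn, a fasciclin-domain protein that supports collagen assembly, had ratios of 0.80, 2.55 and 0.67 (mean 1.34 ± 1.05, SD, n = 3 litters, and 0.74 without litter 116). Its probe (chr3:54478490-54478549 in mm8, plus strand) gave signals of 12.16, 11.56 and 13.88 in the Lats2+/+ extracts and of 12.96, 14.11 and 14.55 in the Lats2-/- extracts. The Lats2-/- extract was higher in each litter and on 8 of 8 arrays, yet the Lats2+/+ extract of litter 121 was above the Lats2-/- extract of litter 112, so that the genotypes overlapped.

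Fn1, the fibronectin of the pericellular matrix, was measured by 4 probes, the brightest of them (A_51_P100856, chr1:71524056-71526293 in mm8, minus strand) printed in 10 spots on each array. Its signals were 10.70, 11.06 and 13.89 in the Lats2+/+ extracts and 11.06, 13.45 and 13.96 in the Lats2-/- extracts. Litter 121 was high in both genotypes and litter 112 low in both, and the genotypes parted in litter 116. The ratios were 0.36, 2.40 and 0.07 (mean 0.94 ± 1.27, SD, n = 3 litters, and 0.22 without litter 116). The sign in litter 121 was not settled: with Lats2-/- in Cy5 it was -0.01 and with median centring in place of loess -0.03, and 2 of the other 3 probes read -0.02 and -0.05.

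Sparc, a collagen-binding glycoprotein, was strongly expressed, with signals of 15.10, 15.31 and 16.10 in the Lats2+/+ extracts and of 14.56, 16.38 and 16.65 in the Lats2-/- extracts (A_52_P101852, chr11:55239370-55242027 in mm8, minus strand). It was lower in Lats2-/- in litter 112 and higher in the other litters, at -0.54, 1.07 and 0.55, so that the SD exceeded the mean (0.36 ± 0.82, n = 3 litters), which was 0.01 without litter 116 and 0.81 without litter 112. The second probe gave -0.55, 1.07 and 0.13.

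Smoc2, a relative of Sparc that binds calcium and growth factors, had signals of 8.52, 8.89 and 9.46 in the Lats2+/+ extracts and of 9.18, 9.10 and 6.52 in the Lats2-/- extracts (A_52_P646762, chr17:14140106-14140165 in mm8, plus strand). The extract of litter 121 labelled Lats2-/- stood far below the other 5. The ratios were 0.66, 0.20 and -2.94, the last a 7.70-fold difference on a Lats2-/- signal close to background. With Feature Extraction's processed signals litter 121 read -4.82 and the mean was -1.31. The mean of the main values was -0.70 ± 1.96 (SD, n = 3 litters) and 0.43 without litter 121. On the second probe this extract was not well above background on any of 4 arrays, and there the Lats2+/+ extract was at least 2.89-fold higher.

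Smoc2 and Thbs2 were the only members lower by 2-fold or more in litter 121, and their brightest probes lie 263950 bases apart on chromosome 17 in mm8. Spon2, Thbs1 and the remaining members lie on other chromosomes, apart from Thbs3 and Postn, which are both on chromosome 3.

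**Figure D3:**
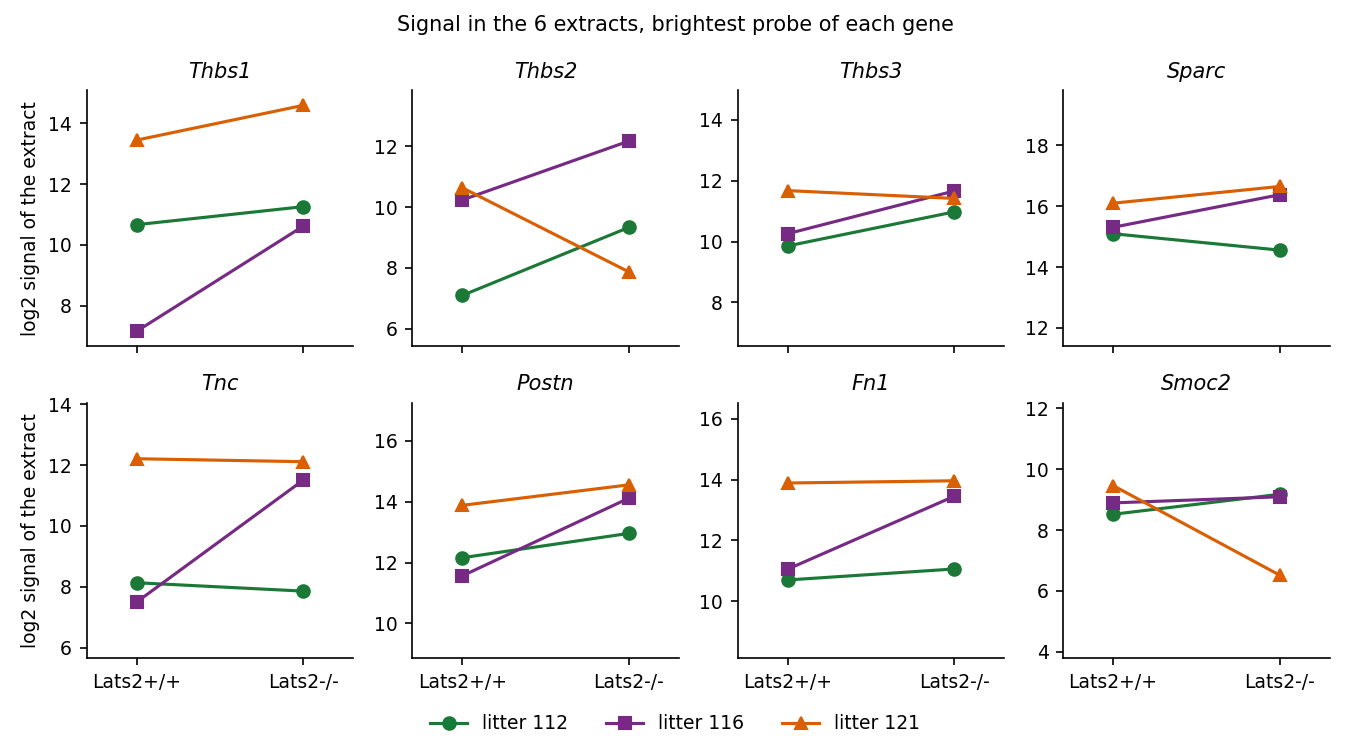
Log2 signal of the brightest probe of the 8 members other than Spon2 in the 6 extracts, with a line joining the Lats2+/+ and Lats2-/- extract of a litter; each panel spans the same number of log2 units. In litter 116 the Lats2-/- end lies well above the Lats2+/+ end for Thbs1, Tnc, Postn and Fn1, and in litter 121 it lies well below it for Thbs2 and Smoc2.

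The members differed by litter. In litter 116, 8 of the 9 were at least 2-fold higher in Lats2-/- and 0 were at least 2-fold lower, where 6.2% and 4.05% of all genes were. In litter 112, 3 were higher (Spon2, Thbs2 and Thbs3) and 0 lower, beside 3.59% and 1.62% of genes. In litter 121, 2 were higher (Spon2 and Thbs1) and 2 lower (Thbs2 and Smoc2), beside 4.55% and 3.54%. With the processed signals several large ratios were larger still, at 4.22 for Thbs1 and 4.63 for Tnc in litter 116 and 2.97 for Thbs2 in litter 112. The median ratio of the 9 members was 0.66, 2.40 and 0.07 in litters 112, 116 and 121, and over all genes it was 0.02, 0.01 and 0.02. Since the members were selected on these ratios, nothing is read from their counts or medians beside those of all genes.

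The spread over litters was also wide. The SD of the 3 litter ratios had a median of 1.52 over the members and 0.29 over all genes. The range of the 3 Lats2+/+ signals had a median of 2.32 over the members and 0.52 over all genes. It was 1.03 for Spon2, 4.71 for Tnc, 3.54 for Thbs2, 3.19 for Fn1 and 0.94 for Smoc2. Ranges as wide as that of Spon2 were found in 19.5% of genes, and as wide as that of Tnc in 0.298%. Because the members were selected on ratios from these same extracts, nothing is read from their spread beside that of all genes.

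Several marker lists were higher in Lats2-/- beside the members in litter 116, by 3.51 for the summed smooth muscle list, 1.5 for cartilage, 1.19 for neural and 1.16 for fibroblast markers. Within them Col1a1 read 2.75, Col2a1 2.53, Thy1 2.05 and Ncam1 1.34, while Vim read -1.19. The neural sum, with 2 of its 4 markers well above background in all 6 extracts, ran from 12.23 to 12.88 in the Lats2-/- extracts and from 11.70 to 13.26 in the Lats2+/+ extracts. Of 4 smooth muscle markers on the array 2 (Acta2 and Tagln) were well above background in all 6 extracts, and the other 2 in some. The list's summed level on the log2 scale ran from 16.84 to 18.01 in the Lats2-/- extracts and from 13.97 to 17.65 in the Lats2+/+ extracts, and its difference was 0.36 in litter 121 and -0.38 in litter 112. Acta2 and Tagln were lowest in the Lats2+/+ extract of litter 116, with signals of 13.42 and 12.26 where the other 5 extracts gave at least 15.37. The part of these lists in the ratios of litter 116 was not tested, and in bulk RNA fewer cells of a type and less RNA per cell cannot be told apart.

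In litter 121 single markers were far lower beside Thbs2 and Smoc2, with Thy1 at -3.66 and Sox9 at -3.71, and with Pdgfra at a signal of 11.26 in the Lats2+/+ extract while the Lats2-/- extract was not well above background. Other markers of the same lists were not: Pdgfrb read -0.14, Vim -0.07, Col2a1 -0.40 and Acan 0.01. The summed fibroblast list read -0.76, with Col1a1 at -1.13 and Col1a2 at -0.72, and the summed cartilage list -1.03. The fibroblast sum ran from 17.64 to 18.66 in the Lats2-/- extracts and from 17.49 to 18.44 in the Lats2+/+ extracts, and the cartilage sum, of which Matn1 was above background in no extract, from 10.84 to 11.25 and from 9.75 to 11.87. The part of these differences in the ratios of Thbs2 and Smoc2 was not tested. Epithelial, endothelial, blood and skeletal muscle lists had no marker well above background in all 6 extracts.

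Set beside the other members in the same litter, the Spon2 ratio was not the largest throughout. In litter 112 the ratio of Spon2 minus that of Thbs2 was -0.97 on the log2 scale, so that Thbs2 was above it. In litter 116 Thbs1 was 0.55 below it and Tnc level with it, and the order of Tnc and Spon2 was not settled: with the processed signals they read 4.63 and 4.48. In litter 121 the next member, Thbs1, was 3.48 below it, and Thbs2 and Smoc2 were 7.39 and 7.57 below it. The mean difference from Spon2 ran from 1.57 ± 1.66 for Thbs1 to 3.99 ± 3.49 for Smoc2 (SD, n = 3 litters).

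Pearson's r with Spon2 over the signals of the 6 extracts was 0.72 for Sparc, 0.71 for Postn, 0.63 for Fn1, 0.60 for Thbs3, 0.59 for Tnc, 0.33 for Thbs1, 0.26 for Thbs2 and -0.55 for Smoc2. Of 901 genes whose range over the extracts was at least 2.52, 13 had an r above 0.9. The genes named next are the highest of these 901, so that their r cannot be set against those of the members. These points share litters, arrays and depth of signal, and no p is given.

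The 8 genes with the highest r were Cpq (0.997), a secreted carboxypeptidase named Pgcp in the files, the nuclear cytokine Il33 (0.980), Bend5 (0.967), the thymosin gene Tmsb15l (0.955), Zcchc18 (0.933), the chemokine Ccl17 (0.932), the phosphatase Dusp4 (0.928), which acts on ERK, and Prelp (0.926), a leucine-rich proteoglycan. Cpq gave signals of 6.14, 7.57 and 6.79 in the Lats2+/+ extracts, in the same order of litters, and of 7.37, 11.33 and 11.65 in the Lats2-/- extracts, much the course of Spon2. As their choice by likeness to Spon2 favours, all 8 had ratios over 1 in litters 116 and 121, whereas in litter 112 Ccl17 read -0.18 and 6 others were above 0. The Ccl17 signals there, 6.42 (Lats2+/+) and 6.25 (Lats2-/-), were near the dimmest signals called well above background, so its sign was not settled. Bend5 is given no ratio in litter 112, where its signals of 6.04 (Lats2+/+) and 5.89 (Lats2-/-) were under the dimmest signals called well above background on those arrays.

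**Figure D4:**
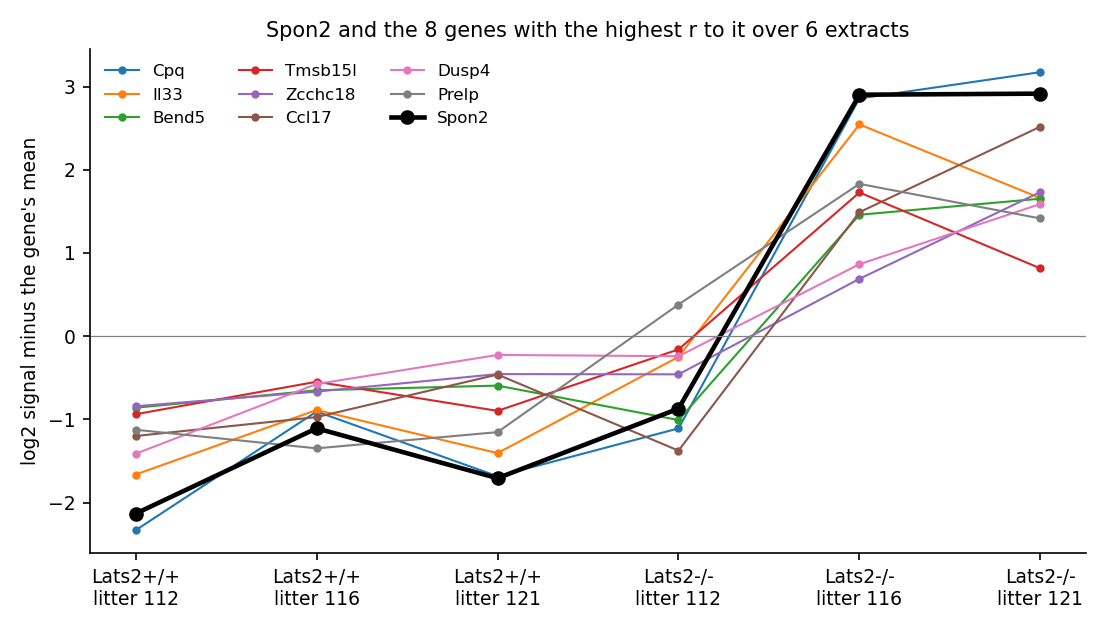
Log2 signal in the 6 extracts, each gene minus its own mean, for Spon2 (black, thick) and the 8 genes with the highest Pearson r to it. The order of the extracts along the axis is that of the labels; the 8 genes and Spon2 are highest in the Lats2-/- extracts of litters 116 and 121.

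The wider class was described from a list of 43 other matricellular and adhesion proteins, of which 42 were on the array and 28 had a kept probe. None of the 28 passed the adjusted threshold in limma, the smallest adjusted p being 0.634. At an unadjusted p under 0.05 there were 5 higher and 0 lower, or 17.9%, beside 8.15% of all genes. The median of their mean ratios was 0.02, beside 0.02 over all genes, and 14 of the 28 were above 0. This list was chosen with earlier results of these data known, so nothing is read from the share of 17.9%.

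Among the 5 were Ctgf, Cyr61, Nid2 and Efemp2. Ctgf and Cyr61, CCN proteins and long-known targets of YAP and TEAD, gave 1.55, 1.18 and 1.67 and 1.51, 0.68 and 1.87 in litters 112, 116 and 121. Ctgf had a mean of 1.47 ± 0.26 (SD, n = 3 litters) and in limma an adjusted p of 0.634, and varied less between litters than any member. Nid2, a basement membrane nidogen, gave 1.09, 1.78 and 3.68 (adjusted p of 0.711 in limma), and with Ctgf it was 1 of 2 genes of the list that were at least 2-fold higher in each litter, beside 0.314% of all genes. The elastic-fibre protein Efemp2 gave 0.26, 1.0 and 0.42. Counts of the 28 that were at least 2-fold higher and lower were 5 and 2 in litter 112, 11 and 4 in litter 116, and 7 and 10 in litter 121, where the shares of all genes were 3.59% and 1.62%, 6.2% and 4.05%, and 4.55% and 3.54%. Sparcl1, a relative of Sparc, named after its values were seen, gave -0.28, -5.69 and -3.33 (mean -3.10 ± 2.72, SD, n = 3 litters, with an adjusted p of 0.711 in limma). Its Lats2-/- signals in litters 116 and 121 were 6.55 and 6.18, near the dimmest signals called well above background. The sizes of those 2 ratios, and of the mean, are therefore uncertain.

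The receptors of the members were described from a list of 25 genes, all on the array, of which 21 had a kept probe. None passed the adjusted threshold in limma, the smallest adjusted p being 0.711, and at an unadjusted p under 0.05 there were 1 higher and 2 lower, or 14.3% beside 8.15% of all genes. The median of their mean ratios was 0.23. This list too was chosen with earlier results of these data known, so nothing is read from the share of 14.3%. App, the amyloid precursor protein, which spondin 1 binds, gave 1.07, 1.56 and 0.50. Cacna2d1, a calcium channel subunit that thrombospondins bind in neurons, gave -0.47, -0.41 and -0.47, and Lrp8, a lipoprotein receptor, gave -0.19, -0.96 and -0.69. Cd47, the thrombospondin receptor, gave -0.19, 0.51 and 1.06 and was named after its values were seen.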

How the data were processed

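RNA of 6 MEF extracts, paired by litter, was measured on 8 2-colour Agilent arrays of design 14868. The scanner files deposited by the authors give the mean intensity of each spot and the median intensity of its background in each channel, without normalization, and log10 ratios of red over green already dye normalized by Feature Extraction (10.7.3.1 in the file headers, 10.5.1.1 in the submitters' processing notes). The series' deposited table of log10 ratios differed from the scanner ratios, turned to Lats2-/- over Lats2+/+, by at most 0.00500.

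Intensities were corrected with normexp (offset 50), and 860 outlier gene spots were left out, none being saturated. The ratios were then normalized by loess, turned to Lats2-/- over Lats2+/+ and averaged over spots, and over the arrays of a litter with both dye orientations, since these hold the same extracts (n = 3 litters). Signals per extract were taken after Aquantile. The brightest kept probe stood for a gene, and 22642 probes were kept. limma 3.58.1 under R 4.3.3 tested whether the mean litter ratio differed from 0 (two-sided), and p-values were adjusted after Benjamini and Hochberg across kept probes. The pairing comes from the clone names and from sharing an array, and ratios within a litter correlated at 0.93 to 0.99 between arrays. The p-values measure only the spread between these litters, with 1 extract of each genotype in each, and the number of litters limits the precision.

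The members and both gene lists were chosen with earlier results of these data known. Named genes were all members, up to 8 genes of each list by smallest p with an unadjusted p under 0.05 or 2-fold or more one way in every litter, the 8 genes most like Spon2 among genes with a range over the extracts of at least 2.52 log2 units, and Lats2. Sparcl1 and Cd47, named after their values were seen, and the cell type markers given by name fall outside this rule. Probe coordinates are those of mm8 in the files, and no probe sequence is printed. Alternatives were another offset, processed signals, the deposited table, median centring, single dye orientations, other filters, other probes, single litters left out, blocks and the methods' t-test. The values of 1 gene that the rule names are not reported here.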

Additional observations from a re-analysis of the deposited data

How the results depend on the processing

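The mean ratio of Spon2 stayed above 0 under all 12 alternatives, between 2.64 and 4.32. It was 3.72 with an offset of 16, 4.23 with Feature Extraction's processed signals, 2.77 as the mean of both probes and 3.63 with the slide as a fixed block, and it ran from 2.64 to 4.32 when single litters were left out. The means of the other members moved by less than 1 SD of the litters, which for Thbs2, Thbs3, Sparc, Tnc, Fn1 and Smoc2 was larger than the mean itself. When a litter was left out those of Thbs2, Tnc and Smoc2 changed sign (-0.42, -0.19 and 0.43), and those of Sparc, Thbs3, Postn, Thbs1 and Fn1 came down to 0.01, 0.43, 0.74, 0.87 and 0.22.

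The main comparison gave 0 probes past the adjusted threshold, 1549 at an unadjusted p under 0.05 and 55 with 2-fold or more one way in every litter. The last count was 184 with the processed signals, 184 with the deposited table, and 168 to 231 when single litters were left out, where fewer litters have to agree. Without a filter on dim probes 2623 probes had an unadjusted p under 0.05. Pairing entered through the litter ratios: with no replicate block 554 probes had an unadjusted p under 0.05, and 0 of the receptors did. With the litter as a random block 341 probes passed the adjusted threshold, 2999 the unadjusted one, with 9 of the other matricellular genes and 7 of the receptors. With the slide as a random block these were 717, 4029, 12 and 8. Both of these count arrays of the same extracts as samples. A plain t-test on the litter ratios, in place of limma's, gave 2 of the other matricellular genes and 1 receptor an unadjusted p under 0.05. It is not the call of the paper's methods, which also ask for 2-fold and do not say which replicates entered. The cause of the other shifts was not tested. Small differences at low signal, as for Spon1 and the dim Tnc and Smoc2 probes, could not be measured.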
